A study of Mus musculus with 17 samples.

Results

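The CMS-IP windows of mouse chromosome 11 that held more signal in Sirt6 knockout (KO) embryonic stem cells than in wild-type (WT) cells number 265, of 3780 windows in the authors' deposited table and of 314 listed on that chromosome. A window is a stretch of 500 bp, and it was taken as a member where its RPKM (reads per kilobase scaled to the library's reads) was higher in the KO IP library than in the WT IP library. The IP reads thus chose the members, so their IP values are given as a description; the input reads and the ChIP-seq peaks were not used in the choice. The table lists only windows with an edgeR p under 0.001 in the IP, and chromosome 11 gave 18 of the 74 windows higher in KO at an adjusted p under 0.1. Genome-wide, 0.0719% of the 3084167 windows tested were listed as higher in KO and 0.123% in either direction, and 0.0024% were higher in KO past the adjusted limit. Since the same IP contrast set the rule, nothing is read from these shares.

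5-Hydroxymethylcytosine is made from 5-methylcytosine by the Tet dioxygenases and is abundant in embryonic stem cells, where it marks gene bodies, enhancers and the flanks of CpG islands. Bisulfite turns it into cytosine 5-methylenesulfonate (CMS), against which the IP antiserum is directed. Sirt6 is a NAD-dependent deacetylase of histone H3 that acts on lysines 9 and 56. The study's title links Sirt6 to Tet-mediated 5-hydroxymethylcytosine, and the table asks where that mark differs between the genotypes.

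KO cells were Sirt6 knockout mouse embryonic stem cells of strain 129, and WT cells were wild-type embryonic stem cells of the same strain, with no treatment named for either. For each genotype there was 1 IP library and 1 input library, the sheared DNA without enrichment. The labels name no clone, passage or sex for either line. Peak lists from ChIP-seq came from the same 2 genotypes: Sirt6 in untreated KO and WT cells, and H3K9ac and H3K56ac in untreated cells and in cells given retinoic acid. The cells used for ChIP-seq had been kept on irradiated fibroblasts, which were taken out by plating before use. With 1 library in a group, no difference between KO and WT has a replicate check and none was tested; what differs between these libraries cannot be told apart from what differs between the genotypes.

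The IP libraries held 11413874 reads for KO and 13451714 for WT, and the input libraries 23924232 for KO and 16623305 for WT, as implied by the deposited counts and RPKM. Both KO Sirt6 lists held 0 peaks, against 14510 in the WT list. The WT Sirt6 library was the shallower, with 2196741 reads against 41262663 and 50412452 in the KO ones. Distances to WT Sirt6 peaks thus rest on the peaks called at that depth. Positions are in build mm9. No annotation or sequence of that build was used here, so windows are named by position and the genes in them were not analysed.

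The members were unevenly spread, with 73 of the 265 in the first 10 Mb of the chromosome and 192 in the rest. Within the first 10 Mb nearly all lay in 1 run, from 4959001 to 6985000, in which each window started within 500 kb of the one before it. This run held 67 windows over 2.03 Mb, or 33.1 windows per Mb. With a limit of 100 kb between neighbours, its core held 43 windows from 5364001 to 6145000. Only 6 members of the first 10 Mb lay outside the run. The remaining 192 windows lay between 11730001 and the end of the listed positions, and the first of them stood nearly 4 Mb beyond the last window of the first 10 Mb, at 7745001. Members were found in 67 of 119 bins of 1 Mb, and 10 or more in 4 of them. The bin from 5 to 6 Mb held 38 windows and that from 6 to 7 Mb held 28, whereas the fullest bins elsewhere, from 69 to 70 Mb and from 96 to 97 Mb, held 17 each.

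**Figure D1:**
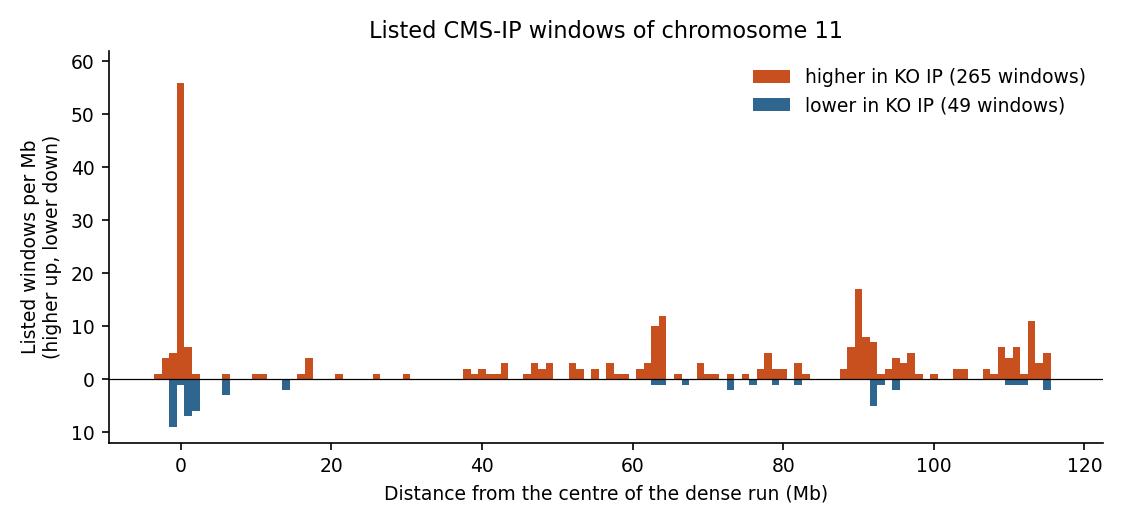
Number of listed windows of chromosome 11 per Mb (y axis), higher in the KO IP above the line and lower in the KO IP below it, against the distance from the centre of the dense run in Mb (x axis). The central bin held 56 higher windows and 1 lower window, and the 2 bins beside it held 5 and 6 higher windows and 9 and 7 lower ones.

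By the same rule, no other chromosome had a run of as many windows higher in KO. The next longest at 500 kb were on chromosome 10, with 50 windows over 4.59 Mb (10.9 per Mb), on chromosome 7, with 33 over 1.89 Mb (17.5 per Mb), and on chromosome 6, with 32 over 1.16 Mb (27.5 per Mb). At 100 kb the next longest held 22 windows, on chromosome 6. Some runs with fewer windows were denser. The chromosome 6 run at 100 kb had 154 windows per Mb, against 55.1 for the core on chromosome 11. At 500 kb a run of 9 windows on chromosome 3 had 38.1 per Mb. The run on chromosome 11, the one with the most windows, stood apart in its WT input: 15 of its 67 windows held at most 1 WT input read. The runs of chromosomes 10, 7 and 6 at 500 kb held 0 such windows each. WT IP reads were at 0 in 15 of the 67 windows, against 2 of 50 on chromosome 10, 0 of 33 on chromosome 7 and 1 of 32 on chromosome 6. The IP reads took part in choosing the windows, so the IP counts set no run apart. These counts describe the listed windows and carry no test.

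The windows of the dense stretch were low in both WT libraries. Members in the first 10 Mb had a median of 31 IP reads for KO and 6 for WT, and of 17 input reads for KO and 7 for WT. In the rest of the chromosome the medians were 34 IP reads for KO and 12.5 for WT, and 26 input reads for KO and 20 for WT. Scaled to library size, the median KO IP signal was thus close in both places, 5.43 RPKM in the first 10 Mb and 5.96 RPKM in the rest. The median WT IP signal was 0.892 RPKM in the first 10 Mb and 1.86 RPKM in the rest. In the input, the medians were 1.42 RPKM in KO and 0.842 RPKM in WT in the first 10 Mb, against 2.17 RPKM in KO and 2.41 RPKM in WT in the rest. The input values show that the listed windows of the stretch were poorly covered before any enrichment, and more so in WT.

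**Figure D2:**
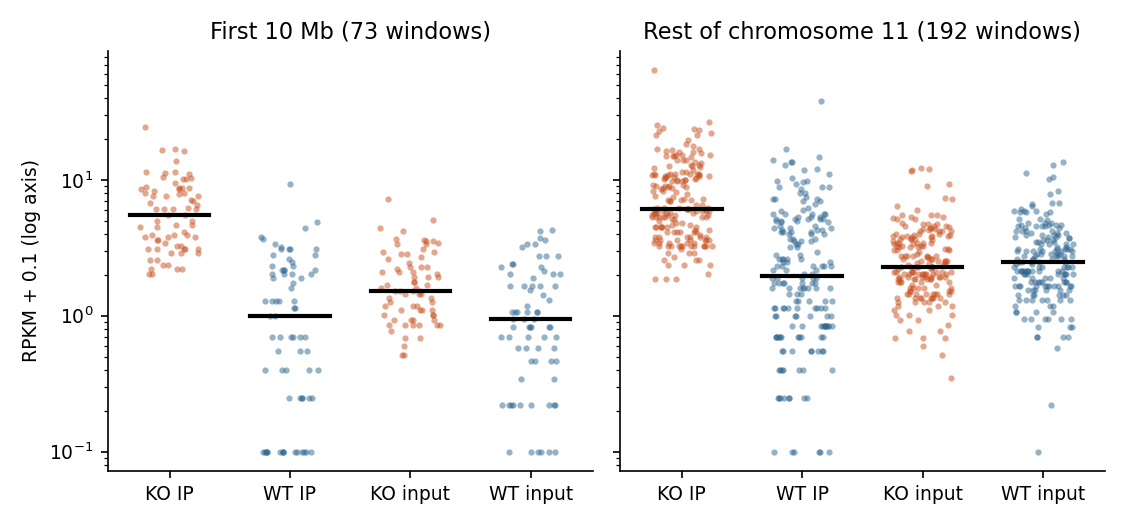
RPKM plus 0.1 on a log axis for each member (points) in the 4 libraries, for the first 10 Mb and the rest of chromosome 11, with the median as a bar. In the first 10 Mb the KO input median, 1.42 RPKM, lay above the WT input median, 0.842 RPKM; in the rest they were 2.17 RPKM in KO and 2.41 RPKM in WT.

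Summed over windows, the IP ratio of KO to WT was 4.77 in the first 10 Mb (2682 KO reads and 662 WT reads; exact 95% interval 4.38 to 5.21) and 2.50 in the rest (9177 KO reads and 4330 WT reads; 2.41 to 2.59). Windows with few reads need a larger ratio to pass the p limit, so the order of these IP ratios is set in part by the choice. The input was not level in the first 10 Mb. There the KO library held 1593 input reads and the WT library 706, a ratio of 1.57 (1.43 to 1.72). In the rest it was 0.970 (6451 KO reads and 4620 WT reads; 0.934 to 1.01), and over the 1953 windows higher in KO on other chromosomes 0.996 (0.984 to 1.01). The input ratio of the first 10 Mb was 1.62 times that of the rest (delta-method interval 1.47 to 1.78), whereas the rest stood at 0.974 times the other chromosomes (0.936 to 1.01). These intervals cover the counting of reads and not the variation between cultures or libraries.

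Most windows of the stretch shared the direction of the input difference. Input RPKM was higher in KO than in WT at 59 of 73 members in the first 10 Mb and at 91 of 192 in the rest, against 972 of 1953 on other chromosomes. Inside the run it was higher in KO at 59 of 67, so at 0 of the 6 members of the first 10 Mb outside it. Among members with at least 20 input reads, 22 of 47 in the first 10 Mb had an input ratio of at least 1.5, against 16 of 180 in the rest; over all windows higher in KO with as many input reads the share was 15.6%. An input ratio of at most 1/1.5 was found at 5 of 47 members in the first 10 Mb and at 22 of 180 in the rest, beside 11.6% over all windows higher in KO.

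**Figure D3:**
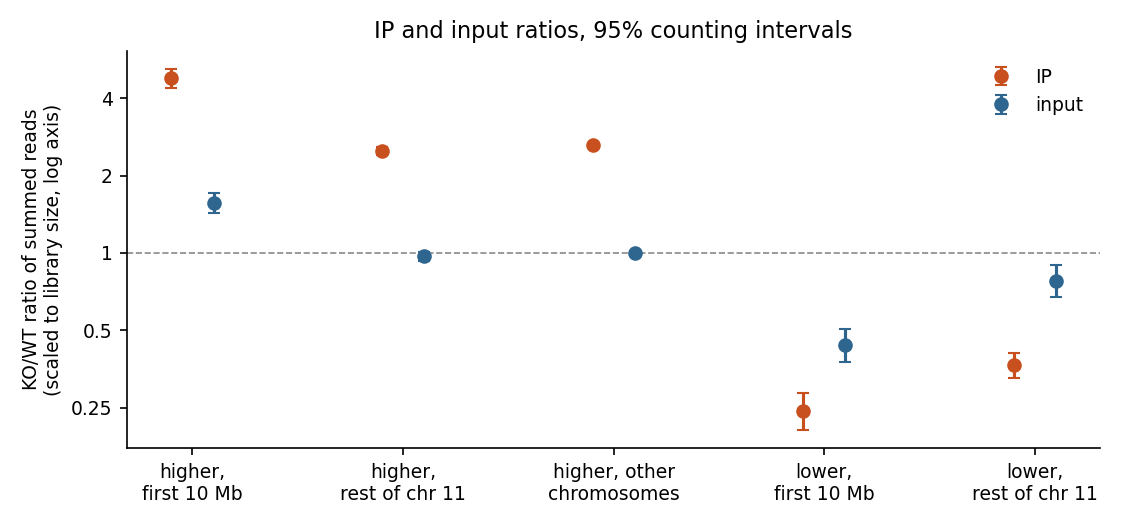
KO/WT ratio of summed reads, scaled to library size, on a log axis for the IP and the input, with exact 95% intervals for counting error, by set of windows (x axis). Input ratios were 1.57 for the higher windows of the first 10 Mb, 0.970 for those of the rest and 0.996 on other chromosomes, and 0.437 and 0.780 for the lower windows of the first 10 Mb and of the rest.

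Divided by the input ratio, the IP ratio was 3.05 in the first 10 Mb (delta-method interval 2.69 to 3.44) and 2.57 in the rest (2.44 to 2.71), beside 2.64 on other chromosomes (2.59 to 2.68). The gap between the places was thus narrower than in the IP alone, and the intervals met at their ends. Whether such intervals meet is not a test between places, and no interval for the difference in this ratio was computed. The places are thus called neither alike nor different after division by input. The intervals also met with the run at 100 kb or at 500 kb in place of the first 10 Mb. They met as well without windows at 0 in a library, and at 20 or more input reads, with 2.98 (2.61 to 3.40) and 2.54 (2.41 to 2.68). Without windows of at most 1 WT input read, a choice made after seeing the data, the values were 3.08 (2.712 to 3.49) and 2.57 (2.44 to 2.709). These narrowly failed to overlap. At an adjusted p under 0.1 they were 5.04 (3.86 to 6.57) over 13 windows and 2.17 (1.73 to 2.72) over 5, and as medians over windows 3.05 and 3.26, in the opposite order. The 2 genotypes can also be read one by one, as IP over input. In KO, IP signal was 3.53 times input in the first 10 Mb and 2.98 times in the rest. In WT it was 1.16 times in both places. IP RPKM exceeded input RPKM at 72 of 73 members in KO and at 35 of 73 in WT in the first 10 Mb, and at 180 of 192 in KO and 90 of 192 in WT in the rest. Since low WT IP reads brought windows into the list, the WT values are set in part by the choice.

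Several members of the run were empty or nearly so in WT, in the input as well as in the IP. The WT IP held 0 reads at 21 members, 15 of them in the first 10 Mb. Over those 15 windows, which were picked by the IP alone, the KO input held 242 reads and the WT input 56, an input ratio of 3.0 (2.24 to 4.09). Over the 6 such windows of the rest it was 0.960 (116 KO reads and 84 WT reads; 0.718 to 1.29). Members with reads in the WT IP had an input ratio of 1.44 in the first 10 Mb (1.31 to 1.59) and 0.970 in the rest. At 6 windows of the first 10 Mb and 1 of the rest, both WT libraries held 0 reads, and this was seen at 0 of the 1953 windows on other chromosomes, which allows a share of up to 0.154%. The KO input was not at 0 in any of these 7 windows, with 66 reads in all. The KO input library was also the deeper one.

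The member with the smallest p was the clearest case of a window without WT reads. It spans chr11:6313001-6313500 and held 78 KO and 0 WT IP reads, or 13.7 and 0 RPKM. Its input held 12 reads in KO and 0 in WT. Against a floor of 3 reads in the WT library, the IP was at least 30.6-fold higher in KO and the input at least 2.78-fold higher. The window that touches it, chr11:6313501-6314000, also had no WT IP reads, with 12 in KO, and 9 KO and 3 WT input reads. Both are described by few reads outside the KO IP, so the sizes of the differences are loosely fixed.

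Further along the chromosome, chr11:6395501-6397000 joins 3 touching members. Its first window held 22 KO and 0 WT IP reads, and 42 KO and 1 WT input reads, which is the highest input ratio of any member with at least 20 input reads, 29.2. Its middle window held 21 KO and 0 WT IP reads, and 13 KO and 0 WT input reads. Its last window was less extreme, with 22 KO and 6 WT IP reads and 14 KO and 5 WT input reads. Over the 3 windows the input held more reads in KO (69) than the KO IP did (65), before scaling to the larger input library. After scaling the order reversed in each window, with 3.85, 3.68 and 3.85 RPKM in the KO IP and 3.51, 1.09 and 1.17 RPKM in the KO input.

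The longest joined region of the members, chr11:6270501-6272500, is made of 4 windows. Its first window held 28 KO and 0 WT IP reads and 22 KO and 3 WT input reads, an input ratio of 5.10. The other 3 windows each held 34 KO and 7 or 8 WT IP reads. Their input held 24 to 28 reads in KO and 7 or 8 in WT, with input ratios of 2.08 to 2.43. In those 3 windows IP and input thus moved the same way, with IP ratios of 5.01 to 5.72. Nearer the start of the run, chr11:5508501-5509000 had a larger input ratio, 12.5, with 37 KO and 1 WT IP reads and 18 KO and 1 WT input reads.

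Other members of the run differed in the IP while their input was close to level or lower in KO. The region chr11:5802001-5803500 joins 3 windows whose input ratios were 0.641, 1.14 and 1.00, in order along the chromosome. Its middle window held 94 KO and 13 WT IP reads (16.5 and 1.93 RPKM), and 49 KO and 30 WT input reads. Its last window held 140 KO and 25 WT IP reads (24.5 and 3.72 RPKM), and 39 KO and 27 WT input reads. In the authors' deposited table that last window had a log2 fold change of 2.73 and an edgeR adjusted p of 2.67e-18, from 1 library against 1. Outside the run, chr11:4340501-4341500 joins 2 windows whose input leaned the other way: its first held 54 KO and 8 WT IP reads, and 10 KO and 12 WT input reads, an input ratio of 0.579. The dense stretch thus mixes windows whose input moved with the IP and windows whose input did not.

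**Figure D4:**
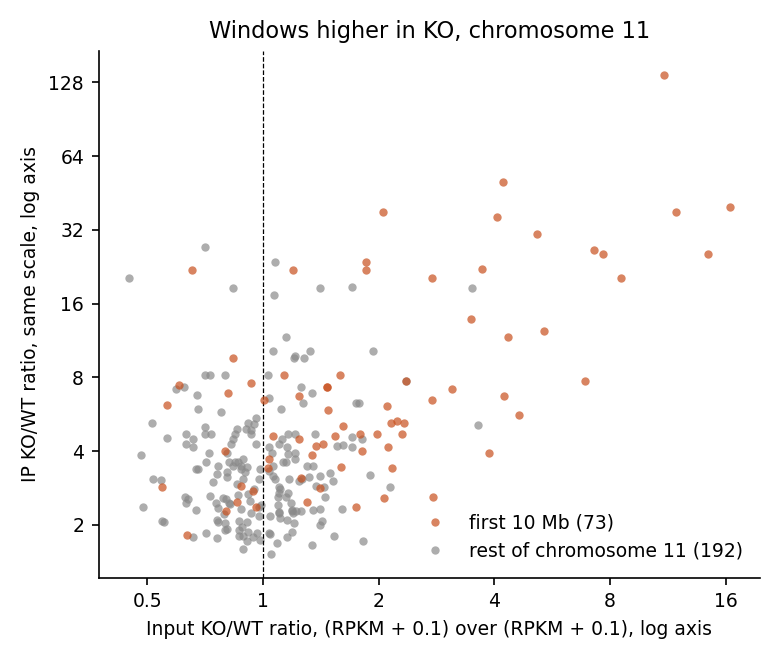
IP KO/WT ratio (y axis) against input KO/WT ratio (x axis) for each of the 265 members, both as RPKM plus 0.1 over RPKM plus 0.1 on log axes, with the first 10 Mb in orange and the rest of chromosome 11 in grey. Windows far to the right of an input ratio of 1 are mostly those of the first 10 Mb, and the rest gather about 1.

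Many members of the stretch stood side by side. In the first 10 Mb, 36 of 73 windows touched another member and formed 16 joined regions; in the rest, 51 of 192 did and formed 24, beside 543 of 1953 on other chromosomes. Of these 40 joined regions on chromosome 11, 34 had 2 windows, 5 had 3 and 1 had 4. The regions of 3 windows were 5802001 and 6395501 in the run, described above, and 69218501, 116541001 and 118948001 in the rest. Those of the rest were better covered in WT: the first summed to 234 KO and 109 WT IP reads, the second to 638 KO and 441 WT, and the third to 157 KO and 60 WT. Their input held 109 KO and 74 WT reads, 163 KO and 103 WT reads, and 144 KO and 103 WT reads in the same order. Touching windows belong to 1 stretch of DNA and are not independent of each other.

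In the rest of the chromosome the IP ratios, which the choice of windows set in part, were smaller and the input was level. The member with the smallest p there, chr11:116541501-116542000, had the most IP reads of all members in both genotypes, with 368 KO and 256 WT IP reads (64.5 and 38.1 RPKM) and 86 KO and 55 WT input reads (7.19 and 6.62 RPKM). Next came chr11:69219001-69219500, with 93 KO and 34 WT IP reads and 52 KO and 34 WT input reads, an input ratio of 1.06. The window chr11:118948501-118949000 held 85 KO and 32 WT IP reads, and its input ratio was 0.978. At chr11:21893501-21894000 the IP held 40 reads in KO and 6 in WT while the input leaned towards WT, with 26 reads in KO and 31 in WT. The lowest input ratios at 20 or more input reads all lay in the rest, at 51734001 (0.417), 74980001 (0.475) and 84333001 (0.496), whereas the 3 highest all lay in the run. The fuller stretches of the rest, chosen after their values were seen, had level input: from 69 to 70 Mb, 17 windows gave an IP ratio of 2.34 (2.09 to 2.63) and an input ratio of 0.973 (0.865 to 1.09), and from 94 to 99 Mb, 41 windows gave 2.49 (2.30 to 2.69) and 0.964 (0.892 to 1.04).

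Taken by 10 Mb, the first was the only bin whose input interval lay wholly above 1. The other 12 bins had input ratios of 0.918 to 1.20, and the interval of each held 1. Their IP ratios ran from 2.26 to 3.38, all below the 4.77 of the first, but the IP reads chose the windows. Members of the first 10 Mb also had fewer WT IP reads, with a median of 6 against 12.5 in the rest. Nothing is thus read from the order of the IP ratios. Several of the other bins rest on few windows, with 2 in the sparsest.

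Windows lower in KO were also frequent in the first 10 Mb, which held 23 of the 49 listed on chromosome 11. Of these, 15 lay between the ends of the dense run. Their input was lower in KO: over the 23 windows the KO input held 292 reads and the WT input 464, a ratio of 0.437 (0.376 to 0.507), beside an IP ratio of 0.242 (0.205 to 0.286). In the 26 lower windows of the rest the input ratio was 0.780 (0.677 to 0.899) and the IP ratio 0.366 (0.328 to 0.409). Inside the run, the summed input was thus above 1 at the higher windows, 1.73 (1.57 to 1.90), and below 1 at the 15 lower ones, 0.450 (0.380 to 0.532). The 6 higher windows of the first 10 Mb outside the run went the other way, with an IP ratio of 4.19 (3.16 to 5.63) and an input ratio of 0.701 (0.534 to 0.921). An example of a lower window is chr11:5411001-5411500, inside the run, with 2 KO and 68 WT IP reads and 4 KO and 22 WT input reads. Low input at lower windows was also found on other chromosomes. Their longest runs of lower windows at 500 kb, on chromosomes 14, 19 and 4, had input ratios of 0.376, 0.444 and 0.274. Only the runs of chromosomes 2, 5 and 18, of 2 windows each, had input ratios above 1.

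At the border between higher and lower windows, the member with the smallest IP ratio was chr11:95695501-95696000, with 25.4 RPKM in KO and 16.7 RPKM in WT. The lower window with the IP ratio closest to 1, chr11:11926001-11926500, had 18.9 RPKM in KO and 30.0 RPKM in WT. The member nearest the p limit, chr11:55200501-55201000, held 57 KO and 32 WT IP reads, with a p of 0.000998 in the authors' deposited table.

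Chromosome 11 had the most WT Sirt6 peaks of any chromosome, 1233 of 14510. Its members lay nearer to a peak in the median than higher windows elsewhere, while the share within 1000 bp was not higher. No distance or share over all windows of the chromosome was computed, so this nearness cannot be told apart from the number of peaks. The median distance from a member to the nearest WT Sirt6 peak was 19813 bp, against 41620 bp for the windows higher in KO on other chromosomes; chromosome 11 ranked 3 in nearness among 21 chromosomes. Within 1000 bp of a peak lay 19 of 265 members, or 7.17% (Wilson interval 4.64% to 10.9%), against 178 of 1953 elsewhere, or 9.11% (7.92% to 10.5%), and by this share chromosome 11 ranked 13 of 21. The difference of -1.94 percentage points had a Newcombe interval that held 0 (-4.82 to 2.00). Direct overlap was found at 6 of 265 members, or 2.26%, and at 53 of 1953 elsewhere, or 2.71%. Within 5000 bp, chromosome 11 exceeded the other chromosomes by 1.93 points with an interval that held 0 (-2.79 to 7.41), and its windows beyond the first 10 Mb did so by 6.93 points (1.06 to 13.7).

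The dense stretch was rich in Sirt6 peaks, and 1 of its members lay within 1000 bp of one. The run held 35 WT Sirt6 peaks, or 17.3 per Mb, where the chromosome had 10.4 per Mb between its first and last peak. Their median fold enrichment, the authors' own value per peak, was 7.31, beside 8.08 for the whole chromosome. Within 1000 bp of a peak lay 1 of 73 members in the first 10 Mb, or 1.37% (0.242% to 7.36%), and 18 of 192 in the rest, or 9.38% (6.01% to 14.3%). The difference was -8.01 percentage points (Newcombe interval -13.1 to -1.14). With a limit of 5000 bp it was 5 of 73 against 48 of 192, a difference of -18.2 points (-25.8 to -8.22). With touching windows joined into 1, the difference within 1000 bp was -7.81 points and its interval held 0 (-13.5 to 1.03). Overlap, at 0 of 73 and 6 of 192, also gave an interval that held 0 (-6.65 to 2.15), as did peaks with a −log10 q of at least 10 within 1000 bp (-8.67 to 0.775). The median distances differed less than these shares did, with 22191 bp in the first 10 Mb and 17247 bp in the rest. The position of Sirt6 peaks was read from WT cells only, and windows are not replicates. The share over all windows of the stretch was not computed, so whether 1 of 73 is low for that place was not tested.

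**Figure D5:**
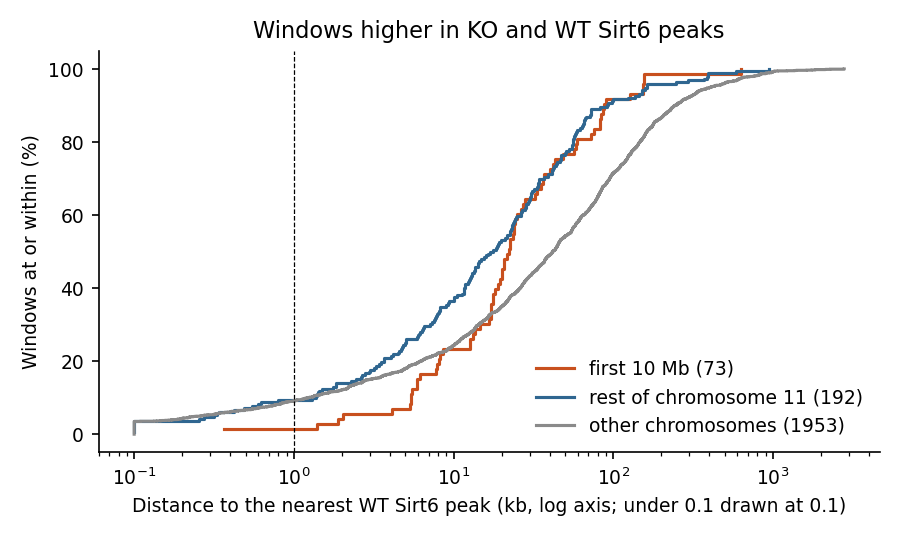
Share of windows higher in KO (y axis, percent) that lie at or within a given distance of the nearest WT Sirt6 peak (x axis, kb, log scale), for the first 10 Mb, the rest of chromosome 11 and the other chromosomes; the dashed line marks 1 kb. At 1 kb the shares were 1.37%, 9.38% and 9.11%, and the median distances were 22191, 17247 and 41620 bp.

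The single member of the first 10 Mb within 1000 bp of a Sirt6 peak was chr11:5608001-5608500, 365 bp from a peak of fold enrichment 7.01. It held 28 KO and 4 WT IP reads, and 7 KO and 1 WT input reads. Of the windows that overlapped a peak, the pair at chr11:22872001-22873000 met the strongest one, from 22872058 to 22872546 with a fold enrichment of 11.4. The first of the pair held 60 KO and 15 WT IP reads and 40 KO and 16 WT input reads, and the second 63 KO and 23 WT IP reads and 49 KO and 24 WT input reads. The input was therefore higher in KO there too, with ratios of 1.74 and 1.42. At chr11:116197001-116197500, on a peak of fold enrichment 9.60, the IP held 16 reads in KO and 1 in WT and the input 20 in KO and 12 in WT, a ratio of 1.16. At chr11:69211001-69211500 and chr11:120210501-120211000, on peaks of fold enrichment 6.05 each, the input ratios were 0.695 and 0.612 while the IP held 18 and 16 reads in KO and 4 and 2 in WT. The 17 peaks that lay within 1000 bp of members had a median fold enrichment of 7.28, beside 8.08 for all peaks of the chromosome. The strongest of these 17 reached 12.9, where the highest of the chromosome was 24.2.

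Acetylated H3K9 and H3K56, marks of active chromatin and substrates of Sirt6, were seldom called beside these windows. None of the 8 acetylation lists had a peak that overlapped a member, which allows a share of up to 4.11% in the first 10 Mb and 1.56% in the rest. Within 1000 bp of a peak in any list lay 1 of 73 members in the first 10 Mb, 1 of 192 in the rest and 24 of 1953 windows on other chromosomes, or 1.37%, 0.521% and 1.23%. With a limit of 5000 bp, chosen after seeing the data, the counts were 5 of 73 in the first 10 Mb, 3 of 192 in the rest and 52 of 1953 elsewhere. In the first 10 Mb, the 1 member within 1000 bp and 4 within 5000 bp lay by peaks of WT H3K9ac after retinoic acid. Of the untreated lists, only KO H3K9ac had a peak near a member there, within 5000 bp of 1. In the rest, the 1 member within 1000 bp lay by peaks of untreated WT H3K56ac, untreated KO H3K9ac and retinoic acid KO H3K56ac. The lists are sparse on this chromosome, with 50 to 152 peaks each, the most in untreated KO H3K9ac. The share over all windows was not computed, so the low counts are not read as a trait of the members. Inside the dense run they held 0 to 5 peaks, again the most in untreated KO H3K9ac, with 1 in the untreated WT list of that mark.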

How the data were processed

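CMS-IP enriched 5-hydroxymethylcytosine in bisulfite-treated DNA of KO and WT cells, with 1 IP and 1 input library per genotype. The authors deposited 1 table of 500 bp windows on build mm9 with read counts and RPKM for the 4 libraries. For the IP it also gives a log2 fold change, a p-value and an adjusted p from edgeR as run by the authors, and a log2 abundance. The submitters' processing notes name edgeR and mm9. How the CMS-IP reads were aligned was not given in the sources. The table repeats its header once, and 0 columns of per-sample values were left unused.

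Per the submitters' processing notes, ChIP-seq was handled with BWA 0.5.9 and MACS2 2.0.10. Each ChIP-seq library has its own list at a q of 0.01; per the file headers, whole-cell extract was the control for Sirt6 and there was none for acetylation. The deposited lists give the pileup signal, −log10 p and −log10 q, and fold enrichment of each peak, computed by the authors.

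Library sizes were derived from the deposited counts and RPKM. Reads were summed over windows, scaled to library size and given as KO/WT ratios with exact (Clopper-Pearson) 95% intervals. An IP ratio divided by its input ratio carries a delta-method interval, shares carry Wilson intervals, and differences of shares carry Newcombe intervals. All cover counting error only; reads carry no molecular identifiers. A library at 0 reads was given a floor of 3 reads per window. Distances to peaks run from edge to edge and are 0 at an overlap. The run of windows was the longest with neighbours at most 500 kb apart, or at most 100 kb. The intervals of read ratios, the distances to peaks and the search for runs were tested on simulated data. The intervals of shares, the joining of touching windows, the library sizes and the floor were not.

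Windows named are those with the smallest p (10 in the first 10 Mb, 5 in the rest), those with 0 WT IP reads, the longest joined regions (1 of 4 windows and 5 tied at 3, where the rule had asked for 3 regions), the 3 highest and 3 lowest input ratios at 20 or more input reads, 5 at Sirt6 peaks, and those beside the limits; some are given in the text. Members, places and rules were chosen with earlier results of these data known. The work used scipy 1.17.1, pandas 2.3.3 and numpy 2.4.6 in Python 3.11.15, with matplotlib 3.10.9.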

Additional observations from a re-analysis of the deposited data

How the results depend on the processing

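With 1 library per group, nothing here has a replicate check. In the first 10 Mb the median member held 6 WT IP and 7 WT input reads, which limits the precision of single windows there. No paired analysis was possible because each group held 1 library and no result comes from a test. Of 101 values recomputed under the alternatives, 60 stayed within the counting interval, quartiles or 1.5 times the count of the value reported and 41 moved out of it. No ratio whose interval lay on one side of 1 crossed it in value. The input ratio over all members, 1.05 (1.01 to 1.09), did come to have intervals that held 1. It was 1.02 (0.989 to 1.06) at 20 or more input reads and 1.03 (0.994 to 1.07) without windows at 0 in a library. Without windows of at most 1 WT input read it was 1.02 (0.990 to 1.06). The input ratio of the rest, 0.970 with an interval that held 1, was 1.01 with the run at 100 kb set aside. At an adjusted p under 0.1 it was 1.02, and both intervals again held 1. In the first 10 Mb the IP ratio of 4.77 was 4.19 at 20 or more input reads, 4.23 without windows at 0 in a library, 4.29 without windows of at most 1 WT input read (chosen after seeing the data), 6.10 as a median over windows and 7.83 at an adjusted p under 0.1, where the input-adjusted ratio was 5.04. The input ratio of 1.57 was 1.73 for the run at 500 kb, 1.41 at 20 or more input reads, 1.39 without windows of at most 1 WT input read and 1.79 as a median, and 1.44 to 1.84 times that of the rest throughout. In the rest, the IP ratio was 2.62 with the run at 100 kb set aside, 3.18 as a median (input-adjusted 3.26) and 2.22 over the 5 windows at an adjusted p under 0.1 (input-adjusted 2.17). Over all members the IP ratio of 2.80 was 2.67 at 20 or more input reads, 3.62 as a median (input-adjusted 3.20) and 3.74 at an adjusted p under 0.1 (input 1.26, input-adjusted 2.96). Members numbered 99 at a p under 0.0001, 45 of them in the first 10 Mb and 54 in the rest, and 18, 13 and 5 at an adjusted p under 0.1. The share within 1000 bp of a Sirt6 peak was 0% in the first 10 Mb, 4.69% in the rest and 3.40% over all members for peaks with a −log10 q of at least 10, where the median distance in the first 10 Mb was 50158 bp; for overlap it was 0%, 3.12% and 2.26%; within 5000 bp it was 25% in the rest and 20% over all; at an adjusted p under 0.1 it was 0% in the first 10 Mb and 20% in the rest, with a median of 3169 bp. Acetylation peaks of any list lay within 5000 bp of 3.02% of members, which were 5 of 73 in the first 10 Mb and 3 of 192 in the rest (limit chosen after seeing the data). The cause of these shifts was not tested.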

Other observations

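Other chromosomes also held runs of windows higher in KO whose input was higher in KO, so chromosome 11 was not the only one with such input. The longest run of chromosome 14 at 500 kb, from 122048001 to 123189500, held 26 windows with an IP ratio of 3.25 and an input ratio of 1.81 (1.57 to 2.09). That of chromosome X, from 70728501 to 71456000, held 15 windows with ratios of 2.49 and 1.74 (1.47 to 2.07). At 100 kb, the longest run of chromosome 7, from 146770501 to 147120500, held 16 windows with ratios of 4.30 and 1.89 (1.60 to 2.25). In each of the 3 runs at most 1 window held at most 1 WT input read, against 15 in the run of chromosome 11 at 500 kb. The WT IP, which took part in the choice of windows, was at 0 reads in at most 2 windows of each, against 15. On chromosome 6 the run of 22 windows from 52114001 to 52256500 had an IP ratio of 3.52 with an input ratio of 1.13 (0.996 to 1.28), a dense run with input close to level.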
